A study of Rattus norvegicus with 6 samples.

Results

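The S100 genes encode small calcium-binding proteins. The 10 of them described here were chosen by family name from the array annotation, with the further rule of a probe set with values. This rule alone did not fix the list, because 5 other S100 genes with values were left out. Those were S100a5, S100a7a, S100a9, S100g and S100vp, with log2 differences between the groups from -0.11 to 0.07. The reason for leaving them out was not given. The list was drawn up with earlier results of these 6 arrays in view, the difference between the groups included. So the differences and calls below describe these arrays and support nothing on their own. S100a8 did not pass the rule, because its single probe set was blank on every array. The other 9 of the 10 were measured, out of 13949 genes tested in all. Where a gene had several probe sets, the one with the highest mean over the 6 arrays was used, which applied to S100a11.

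The cells were rat oligodendrocyte progenitors (OPCs), from which myelin-forming cells arise, taken from newborn pups and kept for 2 days in a proliferation medium with N2, B27, NT3 and PDGF. One group of 3 was exposed to fibrinogen for 12 h, and the other 3 were unstimulated controls in the same medium. Fibrinogen is the clotting protein of blood plasma, and the series title ties it to BMP signaling in these cells and to poor remyelination. The dose, the rat strain and whether replicates were separate cultures were not given in the sources used here, so a p-value here reflects the spread among these 6 samples alone, and part of that spread may be technical.

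S100 proteins carry a pair of EF-hand loops, which bind calcium, and most of them then expose a surface that grips a partner protein such as an annexin. Some act inside the cell on the cytoskeleton, on calcium channels or on membranes, and some are released and bind receptors such as RAGE, the product of Ager. In the nervous system S100b is a long-used marker of astrocytes that the oligodendrocyte lineage also makes. Most S100 genes lie in one cluster, which in the rat is on chromosome 2, while S100b lies on chromosome 20.

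Each array gave 1 normalized log2 level per gene, and 1 unit is a doubling. The number of arrays limits the precision of every value. The median level of all genes was 6.87 to 6.89 on the fibrinogen arrays and 6.85 to 6.88 on the control arrays. Fibrinogen 2 had the widest scatter about its group mean over all genes, with an SD of 0.146, against 0.110 and 0.114 on the other fibrinogen arrays and 0.0862 to 0.0939 on the control arrays. Receptor genes of smell and pheromone sensing (956 olfactory or vomeronasal ones) served as a mark of background, with a median level of 4.03 and a 95th percentile of 5.51, called the receptor percentile below. All 9 measured S100 genes of the list had a mean level above it. All 9 measured OPC markers of a list of 12 lay above it too, among them Pdgfra, the PDGF receptor, and Cspg4, the NG2 proteoglycan.

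Of the 9 S100 genes, S100a3 fell with fibrinogen, 0 rose and 8 did not pass (limma over all genes, Benjamini-Hochberg adjusted p under 0.05). Over all 13949 genes, 3.10% were called, 1.29% as lower with fibrinogen and 1.81% as higher. At an unadjusted p under 0.05, 2 of the 9 were higher (S100b and S100a16) and 2 lower (S100a3 and S100a4), beside 15.6% of all genes in either direction. The fibrinogen and control arrays did not overlap for 4 of the 9 (S100a3, S100b, S100a16 and S100a10), beside 21.3% of all genes. The difference was positive for 7 of the 9 and for 6761 of all 13949 genes. Its median over the 9 was 0.16 on the log2 scale, while the median over all genes was -0.0033. Among the 5 other measured S100 genes the difference was positive for 2 and negative for 3, with a median of -0.017. The number of genes called over the whole table was 432, and leaving out 1 array lowered it to 231 (fibrinogen 1), 280 (fibrinogen 3), 184 (control 1), 156 (control 2) and 151 (control 3).

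**Figure D1:**
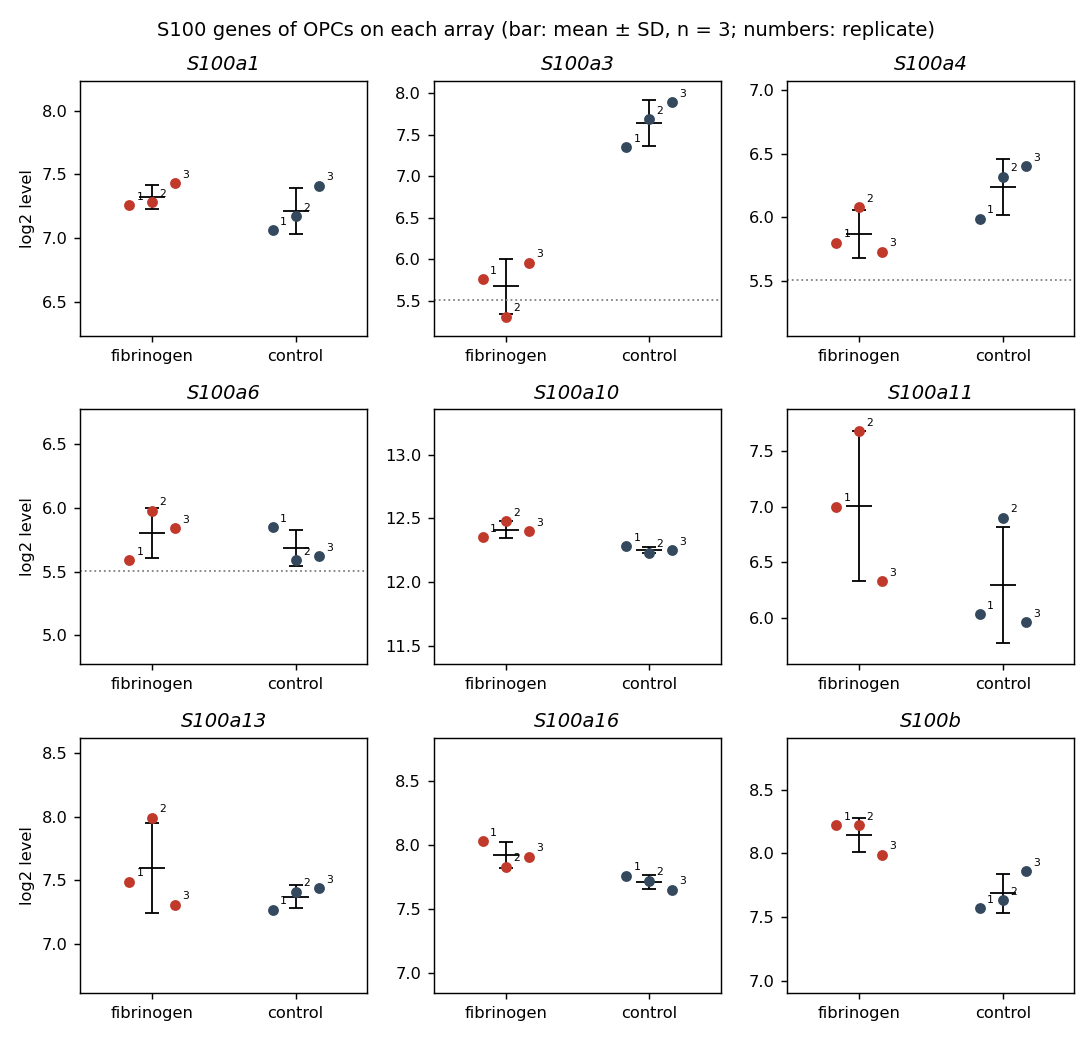
Log2 level of each measured S100 gene on every array (points, numbered by replicate), with the mean and SD of 3 arrays per group; the y ranges differ between panels, and the dotted line is the receptor percentile of 5.51 where it falls in the panel. The S100a3 points of the fibrinogen arrays all lie below those of the control arrays, and S100a11 has the widest spread within both groups.

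S100a3 encodes a cysteine-rich S100 protein that binds zinc as well as calcium and is best known from the cuticle of hair. Its log2 level was 5.76, 5.31 and 5.96 on fibrinogen arrays 1, 2 and 3, and 7.35, 7.69 and 7.89 on control arrays 1, 2 and 3. The groups lay well apart, with the highest fibrinogen array below the lowest control array, and fibrinogen 2 was the lowest of the 6. The means were 5.68 ± 0.33 with fibrinogen and 7.64 ± 0.27 in controls (SD, n = 3 each), and the log2 change was -1.97 ± 0.18 (SE, adjusted p = 0.00142, limma). On the linear scale that was 3.91-fold lower. All 3 control arrays were above the receptor percentile. Fibrinogen 2 was below it and fibrinogen 1 and 3 were above it, so the level with fibrinogen lay close to background. The call held in each fit without 1 array, with log2 changes from -2.11 to -1.78 and adjusted p-values from 0.00393 to 0.0118.

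S100a4 is the neighbour of S100a3 in the cluster and encodes a protein that binds non-muscle myosin and is linked to cell movement. Its level was 5.80, 6.08 and 5.73 on the fibrinogen arrays and 5.99, 6.32 and 6.40 on the control arrays. The groups overlapped, because fibrinogen 2 lay above control 1. With fibrinogen the mean of 5.87 lay close to the receptor percentile of 5.51, so a change could be missed. The log2 difference of -0.37 ± 0.13 (SE) did not pass (adjusted p = 0.203, limma). It ranged from -0.49 to -0.28 over the fits without 1 array.

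The stretches upstream of S100a3 and S100a4 are shown because these 2 genes lie next to each other in the cluster and had the only negative differences of the list, and that of S100b because it had the positive difference nearest to the threshold. Each runs from 250 bases before to 50 bases after the gene start in RefSeq (build GRCr8), in the direction of the gene. S100a3 is at chr2:178384263-178384562 (plus strand), S100a4 at chr2:178388279-178388578 (plus strand) and S100b at chr20:12381032-12381331 (minus strand). Capitals mark matches, on either strand, to the TATA box TATAAA, the GC box GGGCGG, the Smad box CAGAC or the GC-rich Smad motif GGCGCC.
S100a3: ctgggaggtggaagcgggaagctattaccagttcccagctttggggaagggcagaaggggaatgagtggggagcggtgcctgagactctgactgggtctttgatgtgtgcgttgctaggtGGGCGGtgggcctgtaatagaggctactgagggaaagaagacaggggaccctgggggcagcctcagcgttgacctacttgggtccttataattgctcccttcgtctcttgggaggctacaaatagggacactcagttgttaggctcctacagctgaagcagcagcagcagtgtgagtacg
S100a4: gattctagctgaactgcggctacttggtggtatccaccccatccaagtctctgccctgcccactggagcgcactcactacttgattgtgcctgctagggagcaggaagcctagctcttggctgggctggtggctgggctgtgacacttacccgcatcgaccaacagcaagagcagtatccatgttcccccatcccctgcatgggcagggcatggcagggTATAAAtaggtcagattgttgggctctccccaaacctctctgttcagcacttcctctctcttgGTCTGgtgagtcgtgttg
S100b: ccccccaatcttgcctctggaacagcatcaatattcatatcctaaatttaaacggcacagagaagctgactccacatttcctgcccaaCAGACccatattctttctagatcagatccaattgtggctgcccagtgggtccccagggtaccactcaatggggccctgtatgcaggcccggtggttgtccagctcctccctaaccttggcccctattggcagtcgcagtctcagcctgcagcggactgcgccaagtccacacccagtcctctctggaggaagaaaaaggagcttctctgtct

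In these windows S100a3 held a GC box at position -130 from the gene start and no match to the other motifs. S100a4 held a TATA box at -31 and a Smad box at 32 on the reverse strand, and S100b held a Smad box at -162. Of the 7 genes of the list with such a window in the RefSeq table, the TATA box was in 1, the GC box in 4, the Smad box in 4 and the GC-rich Smad motif in 0. Over all 33469 windows of the same length the shares were 14.2%, 33.1%, 50.1% and 11%. A match is a run of letters and says nothing of binding.

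S100b encodes a secreted ligand of RAGE that also binds the filament protein of Gfap inside the cell. Its level was 8.22, 8.22 and 7.99 on the fibrinogen arrays and 7.57, 7.63 and 7.86 on the control arrays. The groups did not overlap, although fibrinogen 3 lay close to control 3. The means were 8.14 ± 0.13 with fibrinogen and 7.69 ± 0.15 in controls (SD, n = 3 each). The log2 difference of 0.46 ± 0.10 (SE), or 1.37-fold, just missed the threshold (adjusted p = 0.0516, limma). It passed when dim genes were left out of the test, at adjusted p-values of 0.0323 without the lowest 30% of genes by mean level and 0.0328 without genes at or under the receptor percentile, and it passed without fibrinogen 3 (0.0487). Over all alternatives the adjusted p ranged from 0.0323 to 0.193, while the difference stayed between 0.40 and 0.54.

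S100a10 encodes the light chain that holds annexin A2 at membranes, and unlike its relatives it does not need calcium for this. Its level was 12.35, 12.48 and 12.40 on the fibrinogen arrays and 12.28, 12.23 and 12.25 on the control arrays. The fibrinogen arrays were all above the control arrays, by a small margin, and the arrays of a group lay close together. The log2 difference was 0.16 ± 0.07 (SE) and did not pass (adjusted p = 0.321, limma).

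Anxa2, the gene for its annexin partner, rose with fibrinogen. Its level was 7.27, 7.38 and 7.27 on the fibrinogen arrays and 6.78, 6.67 and 6.63 on the control arrays, so the groups lay apart. The log2 change was 0.61 ± 0.07 (SE, adjusted p = 0.00401, limma), or 1.53-fold, and it passed in each fit without 1 array. Whether the changes of S100a10 and Anxa2 differed was not tested.

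S100a11 encodes a partner of annexin A1, and it was the most scattered of the S100 genes. Its level was 7.0, 7.68 and 6.33 on the fibrinogen arrays and 6.03, 6.90 and 5.96 on the control arrays. The second array was the highest of its group in both groups, and control 2 lay above fibrinogen 3. The log2 difference of 0.71 ± 0.34 (SE) was the largest positive one of the 9 and did not pass (adjusted p = 0.372, limma). It was 0.37 without fibrinogen 2 and 1.04 without fibrinogen 3.

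The annotation paired 4 probe sets with S100a11, and the other 3 were dimmer. The second brightest was at 5.89, 6.19 and 5.95 on the fibrinogen arrays and 5.72, 5.66 and 5.63 on the control arrays. That one showed no overlap between the groups and a tighter spread than the brightest, with a log2 difference of 0.34 (adjusted p = 0.0937 in a fit with this probe set, limma). The 2 dimmest lay below the receptor percentile on every array, with differences of 0.30 and 0.28. They differed from each other by at most 0.08 on any array and had equal values on 2 of the 6. RefSeq lists 7 other genes named after S100a11, of which 2 are protein-coding and 5 are pseudogenes, so these probe sets may share probes with copies of the gene, and the level of S100a11 is uncertain.

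**Figure D2:**
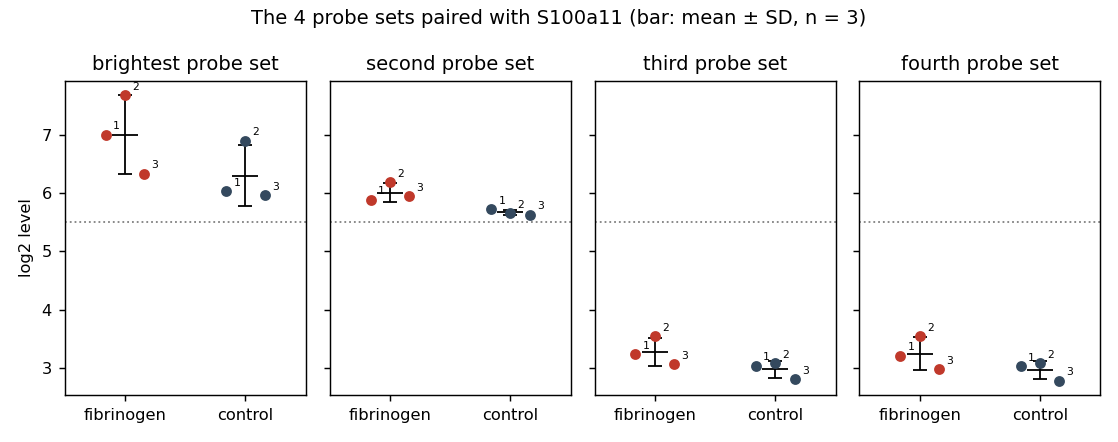
Log2 level of the 4 probe sets paired with S100a11 on each array (points, numbered by replicate), with the mean and SD of 3 arrays per group and the receptor percentile of 5.51 as a dotted line. The difference between the groups is positive in all 4, at 0.71, 0.34, 0.30 and 0.28, and the 2 dimmest have nearly the same values.

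S100a13 encodes a protein that takes part in the release of Fgf1, a growth factor without a signal peptide. Its level was 7.49, 7.99 and 7.31 on the fibrinogen arrays and 7.27, 7.41 and 7.44 on the control arrays. Only fibrinogen 1 and 2 lay above all controls. The log2 difference was 0.22 ± 0.16 (SE, adjusted p = 0.564, limma) and rested on fibrinogen 2, without which it was 0.03.

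S100a16, a widely expressed member of the family, was at 8.03, 7.83 and 7.91 on the fibrinogen arrays and 7.76, 7.72 and 7.65 on the control arrays. The groups did not overlap, but the gap between them was narrow. The log2 difference of 0.21 ± 0.08 (SE) did not pass (adjusted p = 0.221, limma).

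S100a1, a calcium sensor best known from muscle, was at 7.26, 7.28 and 7.43 on the fibrinogen arrays and 7.06, 7.17 and 7.41 on the control arrays. S100a6, or calcyclin, was at 5.59, 5.98 and 5.84 on the fibrinogen arrays and 5.85, 5.59 and 5.62 on the control arrays. The mean level of S100a6 over the 6 arrays, 5.745, lay close to the receptor percentile of 5.51, so a change of it could be missed. Both genes had overlapping groups. Their log2 differences were 0.11 ± 0.10 and 0.12 ± 0.11 (SE, adjusted p = 0.683 and 0.705, limma), and both moved with single arrays. That of S100a6 was 0.22 without fibrinogen 1, 0.03 without fibrinogen 2, 0.20 without control 1 and 0.068 without control 2, and that of S100a1 was 0.057 without fibrinogen 3, 0.033 without control 1 and 0.21 without control 3.

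Fibrinogen 2 was the highest array of its group for 6 of the 9 S100 genes, counting ties. Without it, S100a3 was still the 1 gene of the 9 that passed, and the median difference was 0.12.

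A further 5 S100 genes outside the list of 10 had values. S100a9, the partner of S100a8 in neutrophils, was at 4.53 ± 0.09 with fibrinogen and 4.55 ± 0.15 in controls (SD, n = 3 each). S100a5, S100g and S100vp also had a mean level below the receptor percentile, so a change of these 4 could be missed. S100a7a, whose relatives are known from skin, was above it, at 5.92 ± 0.11 with fibrinogen and 5.94 ± 0.10 in controls (SD, n = 3 each). None of the 5 passed, in limma at an adjusted or an unadjusted p under 0.05, and their log2 differences ranged from -0.11 to 0.07. Over all genes 3.10% and 15.6% passed at these thresholds.

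**Figure D3:**
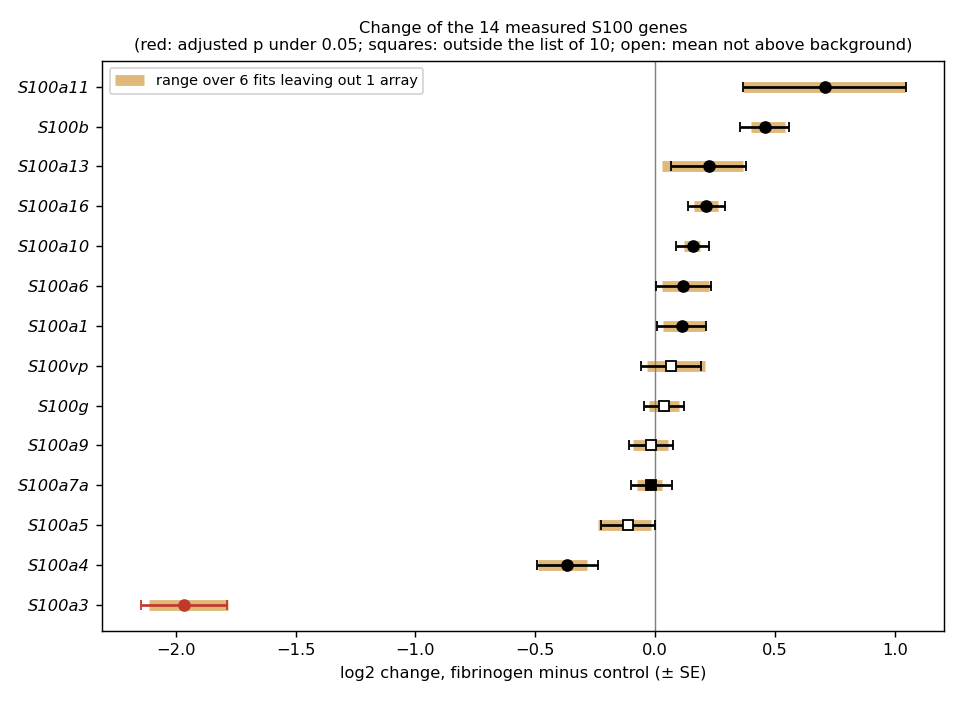
Log2 change (fibrinogen minus control, point, with the SE of the limma fit) of the 14 measured S100 genes; circles are genes of the list of 10, squares are other S100 genes, open symbols have a mean level below the receptor percentile, red marks an adjusted p under 0.05, and the tan bar is the range over the 6 fits that leave out 1 array. S100a3, at -1.97, stands alone at the negative end.

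In RefSeq chromosome order, S100a3 lay between S100a16 and S100a4 among the measured genes of the chromosome 2 cluster. The log2 differences along that stretch were 0.22 for S100a13, 0.21 for S100a16, -1.97 for S100a3, -0.37 for S100a4, -0.11 for S100a5 and 0.12 for S100a6. S100a3 was the 1 gene of the 10 measured S100 genes in that cluster that passed. The nearest measured genes on either side of the cluster, Snapin and Sprr3, had differences of 0.00 ± 0.06 and 0.02 ± 0.11 (SE), and neither passed. S100a11 and S100a10 form a separate pair on the same chromosome. Their nearest measured neighbours, Lce1m and Spopfm2l2, had differences of 0.03 ± 0.08 and 0.10 ± 0.17 (SE). Beside S100b on chromosome 20 these were Ybey at -0.27 ± 0.14 and Prmt2 at 0.11 ± 0.10, and beside S100g on chromosome X they were Ctps2 at 0.07 ± 0.09 and Syap1 at -0.12 ± 0.08 (SE). None of these neighbours passed in limma.

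**Figure D4:**
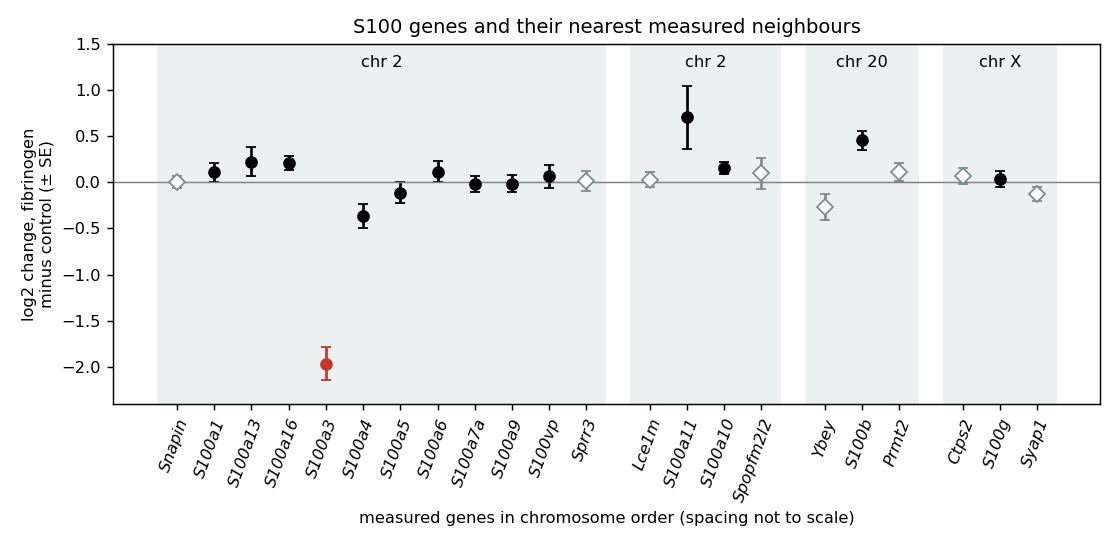
Log2 change (fibrinogen minus control, with SE) of the measured S100 genes (filled circles) and of the nearest measured gene on each side of them (open diamonds), in chromosome order with spacing not to scale. Only S100a3, in red, has an adjusted p under 0.05, and the other S100 genes lie between -0.37 and 0.71.

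Among 9939 other genes with a mean level above the receptor percentile, the 3 whose deviations from their own mean over the 6 arrays lay nearest to those of S100a3, by Euclidean distance, were Tmem255b (0.467), Ptprr (0.835) and Lgr5 (0.999). Tmem255b, a membrane protein gene, was at 8.79, 8.66 and 8.85 on the fibrinogen arrays and 10.58, 10.63 and 10.70 on the control arrays. Ptprr, a tyrosine phosphatase gene, was at 5.60, 5.46 and 5.71 on the fibrinogen arrays and 6.65, 6.96 and 7.15 on the control arrays. Lgr5, a receptor gene for R-spondins, was at 6.02, 6.50 and 6.24 on the fibrinogen arrays and 7.68, 7.95 and 7.72 on the control arrays. Each of the 3 fell in the limma fit, as S100a3 did, so the likeness is mainly that of the difference between the groups.

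**Figure D5:**
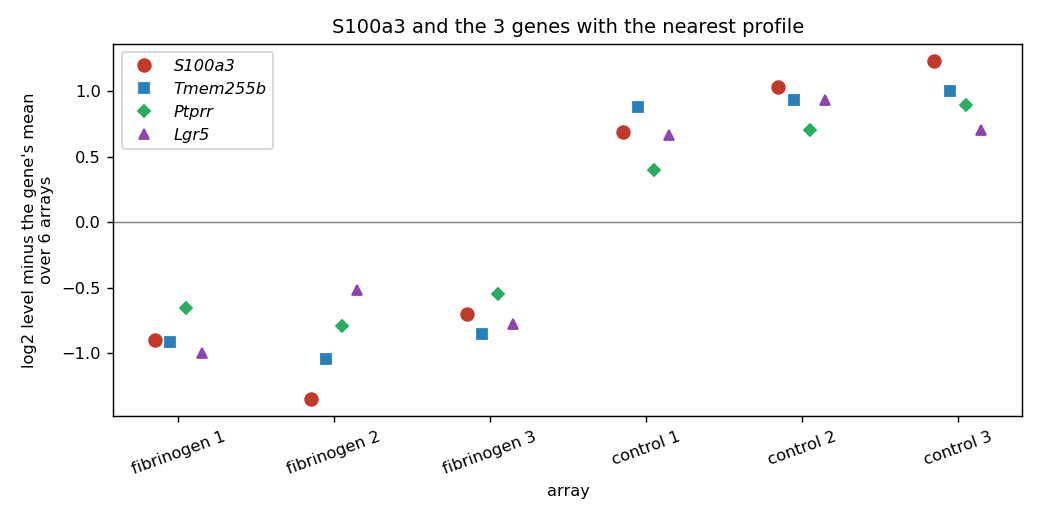
Log2 level minus the gene's own mean over 6 arrays, for S100a3 and the 3 genes with the nearest profile, on each array. The fibrinogen arrays are below 0 and the control arrays above 0 for all 4 genes, and S100a3 has the lowest point, on fibrinogen 2.

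Genes for proteins that S100 proteins bind or act on were set on a list of 41, of which 38 were measured. In limma, 2 of the 38 rose, 2 fell and 34 missed the threshold, beside 3.10% of all genes called. The log2 differences were positive for 19 and negative for 19, with a median of 0.0033. The 2 that rose were Anxa2 and Gfap, which encodes the astrocyte filament protein and changed by 1.24 ± 0.16 (SE, adjusted p = 0.00511). Those that fell were Anxa6, a membrane-binding annexin, by 0.35 on the log2 scale (adjusted p = 0.0448), and Asic1, a proton-gated channel that S100a10 can bring to the membrane, by 0.30 (adjusted p = 0.0466). Both falls lost their call in every fit without 1 array, so that 0 of the 38 fell there. Over all 13949 genes the falls numbered 180, and 55 to 173 in those fits. The adjusted p-values in those fits were 0.0713 to 0.175 for Anxa6 and 0.0571 to 0.199 for Asic1 (limma). With the replicate number as a block both were lost too (adjusted p = 0.0755 and 0.106, limma). Anxa6 was also lost after quantile normalization (adjusted p = 0.0549, limma). Among 11 measured annexin genes of 12, Anxa2 rose, Anxa6 fell and 9 missed the threshold, with a median of -0.06.

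Other genes of EF-hand proteins, which share the calcium-binding loop, gave 0 calls among 40 measured genes of a list of 44 in limma, with a median log2 change of 0.01. Over all genes 3.10% were called. At an unadjusted p under 0.05, 4 of the 40 were higher and 2 lower, beside 15.6% of all genes in either direction. Without fibrinogen 2 the adjusted test called 2 of the 40 as higher. It called 3 as higher with array weights, 1 as higher after quantile normalization and 1 as lower with a mean-variance trend. Over all 13949 genes those fits called 263, 383 and 242 as higher, in that order, and the trend fit called 251 as lower. The largest differences among the 40 were those of Ncald (neurocalcin), at -0.45 ± 0.11, and Pvalb (parvalbumin), at 0.41 ± 0.10 (SE), with adjusted p-values of 0.0759 and 0.0611. Ncald passed with the trend (0.035, of 0.035 to 0.243 over its alternatives), and Pvalb with array weights (0.0446) and after quantile normalization (0.0493, of 0.0446 to 0.155). The mean level of Pvalb lay below the receptor percentile. The 7 genes listed for S100-fused proteins of skin, such as filaggrin, had no named probe set with values.

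S100b is also used as an astrocyte marker, and other astrocyte genes moved on the same arrays. Of 12 measured astrocyte markers on a list of 14, which does not include S100b, 5 rose, 0 fell and 7 missed the threshold (limma). Over all genes 1.81% rose and 1.29% fell. The log2 differences of the 12 markers were positive for 9 and negative for 3, with a median of 0.27. Besides Gfap, the markers that rose included Cd44, the hyaluronan receptor (1.12 ± 0.08, SE), Ndrg2 (0.96 ± 0.10) and the glutamate transporter gene Slc1a2 (0.65 ± 0.07). The levels of the list, summed on the linear scale, were 6135 to 6549 on the fibrinogen arrays and 3956 to 4160 on the control arrays. Of these 12 markers, 11 lay above the receptor percentile and Gjb6 did not. More astrocytes and more RNA of these genes per cell, in whatever cell type, cannot be told apart in such bulk samples. The part of either in the S100b value was not tested.

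OPC markers moved the other way. Of the 9 measured, 4 fell, 0 rose and 5 did not pass, with a median of -0.35. Over all genes 1.29% fell and 1.81% rose. Gpr17 (-0.66 ± 0.10, SE), Neu4 (-0.65 ± 0.09), Pdgfra (-0.40 ± 0.08) and Cspg4 (-0.35 ± 0.08) were the 4 markers that fell. Leaving out 1 array reduced the falls to 2 (fibrinogen 1), 2 (fibrinogen 2), 3 (fibrinogen 3), 2 (control 1), 1 (control 2) and 1 (control 3). Over all genes the falls numbered 180, and 89, 173, 113, 65, 55 and 55 in the same fits in that order. Of the 4 genes, Neu4 passed in each of these fits, Gpr17 was lost without control 2 or 3, Pdgfra passed only without fibrinogen 3, and Cspg4 passed in none. The summed linear levels were 14833 to 16147 on the fibrinogen arrays and 18312 to 18795 on the control arrays, so this list and S100a3 were lower on the same arrays, and its part in the S100a3 value was not tested.

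Most markers of microglia and myeloid cells and of neutrophils were dim. Of 13 measured microglia and myeloid markers 5 lay above the receptor percentile, and of 10 measured neutrophil markers 2 did. Both lists had 0 calls in limma, with medians of -0.01 and 0.05. At an unadjusted p under 0.05 the counts were 0 of 13 and 1 of 10, the 1 being Lcn2. Over all genes 3.10% were called, and 15.6% had an unadjusted p under 0.05. The summed linear levels of the myeloid list were 593 to 618 with fibrinogen and 593 to 626 in controls. Those of the neutrophil list were 306 to 347 with fibrinogen and 301 to 322 in controls. The defining genes Ptprc, Itgam and Csf3r were at or below the receptor percentile.

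Of the other cell types, limma called 0 of 8 fibroblast and pericyte, 0 of 7 endothelial and 0 of 8 Schwann cell markers. At an unadjusted p under 0.05 the counts were 1, 0 and 2, and the medians were -0.09, 0.03 and 0.05. Over all genes 3.10% were called, and 15.6% had an unadjusted p under 0.05. The summed linear levels of the Schwann cell list did not overlap, at 2575 to 2813 with fibrinogen and 2260 to 2400 in controls. Sox2, a transcription factor gene on that list that neural progenitors also express, had a log2 difference of 0.36 ± 0.09 (SE, adjusted p = 0.0664, limma). It passed in both fits without dim genes, with the mean-variance trend and with array weights (0.0293 to 0.0475, of 0.0293 to 0.228 over its alternatives). The endothelial sums were 252 to 254 with fibrinogen and 245 to 251 in controls, and the fibroblast and pericyte sums were 484 to 523 with fibrinogen and 501 to 532 in controls. The neuron sums did not overlap either, at 2631 to 2830 with fibrinogen and 2596 to 2618 in controls. The part of these lists in the S100 values was not tested. Of 12 neuron markers 0 rose and 1 fell in limma, and at an unadjusted p under 0.05, 2 were higher and 1 lower. Their log2 differences were positive for 8 and negative for 4, with a median of 0.04. The 1 that fell was Gad2, by 0.58 ± 0.09 (SE) on the log2 scale, at a mean level below the receptor percentile. Without control 3 that call was lost (adjusted p = 0.0514, limma, of 0.0247 to 0.0514 over the fits without 1 array).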

How the data were processed

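RNA of 6 samples, 3 with fibrinogen and 3 controls, was amplified with a NuGEN kit, per the labels' protocols, and hybridised to Affymetrix arrays. The deposited log2 levels, 1 per probe set and array, were taken as normalized by the authors with RMA, which the submitters' processing notes name beside limma without versions or settings. The log2 scale was inferred from the values, because nothing in the table gives its scale or centring, and scanner files were not used here. RMA can compress differences of dim genes. Genes were named by the platform annotation: of 25106 probe sets with values, 14700 had 1 gene symbol, 275 several and 10131 none, and only the first kind was used. Another 1206 were blank on every array. Of several probe sets of a gene, the brightest was kept. No genome build of the array was given in the sources used here. At most 3.63% of genes had equal values on a pair of arrays.

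The 13949 genes entered a linear model in limma 3.58.1 under R 4.3.3 (lmFit and eBayes, two-sided, no covariates, Benjamini-Hochberg over all genes, threshold 0.05). The SE is that of this fit. The fit was checked on simulated arrays of equal spread, and only for its recovery of set changes. The arrays used here differed in spread, so that check does not cover their false calls. With 3 arrays a group the smallest exact permutation p is 0.1, so no such test was used. The members and all gene lists were chosen with earlier results of these data known. Named genes were all S100 genes, the nearest measured neighbours of the S100 genes, the 3 genes nearest in profile to each S100 gene that passed, and up to 4 genes per list that passed with the largest change, or 2 if none did. Lists were described by counts and medians, with no set test. The sample titles give the replicate numbers. Deviations of same-numbered samples from their group means correlated at 0.0278, 0.0217 and 0.0109 over all genes. The numbers were not treated as pairs in the main fit and were a block only as an alternative.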

Additional observations from a re-analysis of the deposited data

How the results depend on the processing

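S100a3 passed with the same sign under all 14 alternatives: median centring, quantile normalization, leaving out the lowest 30% of genes or those at or under the receptor percentile, averaging a gene's probe sets, a mean-variance trend, array weights, the replicate number as a block, and leaving out each array. Its log2 change ranged from -2.11 to -1.78. The number of S100 genes of the list that passed was 2 instead of 1 in both fits without dim genes, with the mean-variance trend and without fibrinogen 3, where S100b joined (adjusted p = 0.0323, 0.0328, 0.0331 and 0.0487, limma, of a range of 0.0323 to 0.193). It was also 2 with the replicate block, where S100a11 joined (adjusted p = 0.0292, of a range of 0.0292 to 0.653). The range without 1 array was 1 to 2. What same-numbered arrays share beyond the number was not given. Every fibrinogen array correlated best with the control of its own number, but at 0.0278 or less. With the block, 315 genes passed instead of 432, and 2 OPC markers fell instead of 4, with Pdgfra at an adjusted p of 0.077 and Cspg4 at 0.0895 (limma). Array weights gave 659, and leaving out 1 array 151 to 436. Of 166 measured genes of the other lists, 13 passed, beside 3.10% of all genes. The count was 6 to 12 without 1 array and 9 to 19 under the other alternatives. None of the signs that turned belonged to a called gene: without 1 array, S100a7a ranged from -0.077 to 0.028, S100a9 from -0.092 to 0.053, S100g from -0.027 to 0.10, S100vp from -0.033 to 0.21, Cdh5 from -0.017 to 0.113, Sprr3 from -0.057 to 0.103, Lce1m from -0.03 to 0.105, Spopfm2l2 from -0.07 to 0.257 and Ctps2 from -0.017 to 0.113, and Sprr3 was at -0.024 after quantile normalization. The causes were not tested. With signal near background, changes of the dim S100 genes could be missed.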

Other observations

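S100pbp, whose product binds an S100 protein in human cells but is no member of the family, was picked with its values already known. Its brighter probe set was at 9.18, 9.35 and 9.12 on the fibrinogen arrays and 9.10, 9.10 and 8.95 on the control arrays. The groups lay side by side without overlap, and the log2 difference of 0.17 ± 0.09 (SE) did not pass (adjusted p = 0.405, limma). Its dimmer probe set was at 6.93, 6.68 and 6.51 on the fibrinogen arrays and 6.49, 6.51 and 6.39 on the control arrays, where the groups met at 6.51.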
